A study of Homo sapiens with 95 samples.

Results

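Long noncoding RNAs gave some of the highest and some of the lowest counts of the profiled wells, and 7 of them were followed here through every population and chemical: MALAT1 and NEAT1, which build nuclear bodies, and GAS5, SNHG1, SNHG5, SNHG7 and SNHG8, whose introns carry small nucleolar RNAs (snoRNAs). They are 7 of the 23895 gene symbols listed for each well, and they were chosen by name with their levels already known, MALAT1 as the gene with the highest count. Their levels are therefore a description, without a test. Expression was measured by 3′ digital gene expression (3′DGE), which captures polyadenylated RNA by its 3′ end and counts each captured molecule once through a unique molecular identifier (UMI). A level is given below as CPM, a gene's UMI counts divided by all counts of its well and scaled by the usual factor. Since a molecule is counted once whatever its length, CPM values were not divided by length.

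All 95 wells held AALE cells, a human bronchial epithelial line that was immortalized. Cells overexpressing NRF2 (gene NFE2L2), FGFR1, NRG1 or PIK3CA were compared with cells carrying an empty vector with the HcRed reporter (HCRED). Cells with a CRISPR knockout of FAT1 or CDKN2A were compared with cells given the Cas9 and EGFP plasmid PX458 without a guide RNA (GFP). Each of the 8 populations was exposed to the DMSO vehicle, to cigarette smoke condensate (CSC, 24 µg/ml), to benzo[a]pyrene (BaP, 173 µM), a polycyclic hydrocarbon of smoke, or to the tobacco nitrosamine NNK (490 µM). The sources used here do not state whether a knockout population is 1 clone. The results rest on the 82 wells with replicate numbers of 1 digit, in 31 groups of which 25 held 3 wells.

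MALAT1 is retained in the nucleus at nuclear speckles, which store splicing factors. Its mature 3′ end is not made by the usual cleavage and polyadenylation: RNase P cuts the transcript and releases a small tRNA-like RNA, mascRNA, and the long RNA is left with a genomically encoded A-rich end. NEAT1 is the scaffold of paraspeckles, and its short form is polyadenylated while its long form ends as MALAT1 does. Genes that host snoRNAs in their introns release the snoRNAs from the spliced-out introns, and their spliced RNA is often bound by ribosomes and broken down by nonsense-mediated decay.

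Because 3′DGE reads begin at an oligo-A stretch, the ends of transcripts are shown first. All 7 genes are annotated as lncRNA in GENCODE on hg19. MALAT1 spans chr11:65265111-65275544 and NEAT1 chr11:65190245-65213011, both on the plus strand, GAS5 spans chr1:173827697-173838020 on the minus strand, and SNHG1 chr11:62619450-62623425 on the minus strand. SNHG5 lies at chr6:86360209-86388650 and SNHG7 at chr9:139615818-139622636, both on the minus strand, and SNHG8 at chr4:119199858-119206471 on the plus strand. Shown for 6 of the genes are the last 60 bases before the commonest GENCODE transcript end, 5′ to 3′ from the hg19 reference. This end was shared by 11 of 66 transcripts for MALAT1, 2 of 9 for NEAT1, 28 of 80 for SNHG1 and 8 of 89 for SNHG5. For SNHG7 it was 3 of 10 and for SNHG8 10 of 15. The polyadenylation hexamers AATAAA and ATTAAA are in capitals in the lines below.
MALAT1: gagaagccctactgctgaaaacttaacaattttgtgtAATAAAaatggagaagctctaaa
NEAT1: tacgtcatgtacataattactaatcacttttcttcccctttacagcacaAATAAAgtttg
SNHG1: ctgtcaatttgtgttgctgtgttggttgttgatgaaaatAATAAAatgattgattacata
SNHG5: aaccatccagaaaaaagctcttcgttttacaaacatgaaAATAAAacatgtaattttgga
SNHG8: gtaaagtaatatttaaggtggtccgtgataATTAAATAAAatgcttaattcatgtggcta
SNHG7: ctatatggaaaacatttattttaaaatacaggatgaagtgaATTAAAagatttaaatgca
These windows lie at chr11:65273881-65273940 for MALAT1, chr11:65193925-65193984 for NEAT1, chr11:62619460-62619519 for SNHG1, chr6:86386800-86386859 for SNHG5, chr4:119200919-119200978 for SNHG8 and chr9:139619110-139619169 for SNHG7, each read on the strand of its gene. Each of these windows held a hexamer, which was ATTAAA alone in SNHG7 and AATAAA in the others, and in SNHG8 the letters of both overlap. Among the last 60 bases of all 254139 annotated transcripts, 28.4% held AATAAA and 9.61% held ATTAAA. The common NEAT1 end is that of the short form.

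The MALAT1 gene holds in addition an uninterrupted run of 13 A, 359 bases before the common annotated end and a few bases before the place where mascRNA is cut off. It is shown with the bases around it, chr11:65273524-65273651 on the plus strand, with the run in capitals, because it is part of the A-rich end of the mature RNA.
MALAT1 A tract: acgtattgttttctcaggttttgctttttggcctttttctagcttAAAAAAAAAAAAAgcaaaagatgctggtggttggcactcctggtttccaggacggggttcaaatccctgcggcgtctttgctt
The longest annotated MALAT1 transcript with the common end, once spliced, held no A run longer than 6 and so lacks this tract. Of the annotated transcripts, 2.57% held a run of 8 A in their last 60 bases. The count files hold a total per gene, so that counts started at this tract cannot be told apart from counts started at a polyadenylated end.

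The host genes were counted through their spliced RNA and not through the snoRNAs. RefSeq places 11 snoRNAs within GAS5, 8 within SNHG1, 2 within SNHG5 (SNORD50A and SNORD50B), 2 within SNHG7 (SNORA17A and SNORA17B) and 1 within SNHG8 (SNORA24). Of these, 21 are listed in the count files and all were at 0 in the 82 wells. Over all 392 listed snoRNA symbols, 5 had any count, with 173 counts in 82 wells and at most 4 in a well. An example is the box C/D snoRNA SNORD78, at chr1:173834760-173834824 on the minus strand, which 88 of the 91 GAS5 transcripts span and 1 overlaps with an exon. Its box D is in capitals.
SNORD78: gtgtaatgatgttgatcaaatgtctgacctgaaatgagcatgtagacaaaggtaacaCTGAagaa

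Counted libraries of the 82 wells ranged from 692446 to 1895735 counts, with medians of 1426280 under DMSO, 1318389 under CSC, 1255412 under BaP and 1171386 under NNK. All 10 airway epithelial markers averaged at least 10 CPM, while 0 of 6 fibroblast and 0 of 4 endothelial markers did, with VWF and CDH5 at 0 in every well. Of 4 blood markers 1 did so, CD68, and CD3E was at 0. The 4 overexpressed genes were above every HCRED well and the 2 knocked out genes below every GFP well in all 3 DMSO wells of their population. A well of NRG1 cells under NNK, replicate 2, stood apart from the others of its group. The chi-square per degree of freedom between the counts of 2 wells of a group was 1.13 to 11.8 over 76 pairs (median 1.44), where sampling noise alone gives about 1, and the highest values were those of pairs with that well. Each well was counted as a sample. The study describes the wells of a group as biological replicates. The labels do not say how far back their cultures were separate, so the p-values speak only for these wells. For MALAT1 the limma SE was smaller than the spread of the wells, as given below. Each plate row held 1 chemical and each population kept its plate columns, so position on the plate cannot be told apart from either.

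MALAT1 averaged 24727 CPM (SD 4034, n = 82) and took 1.78% to 3.83% of a well's counts. It had the highest count of all genes in 57 of 82 wells and the next highest in the others. The gene next to it in mean level was MT2A, a metallothionein, at 21312 CPM. SNHG5 was the strongest host gene, at 2648 CPM (SD 523, n = 82) and rank 73. GAS5, named for its rise in growth-arrested cells, followed at 1006 CPM (SD 346, n = 82) and rank 176. SNHG8 averaged 203 CPM (SD 58.1, n = 82). The other members were sparse: SNHG1 averaged 30.2 CPM (SD 9.58, n = 82) and NEAT1 12.6 CPM (SD 8.86, n = 82). SNHG7 averaged 5.52 CPM (SD 2.44, n = 82), a median of 6 counts a well. Together the 7 members took 2.21% to 4.24% of the counts of a well.

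**Figure D1:**
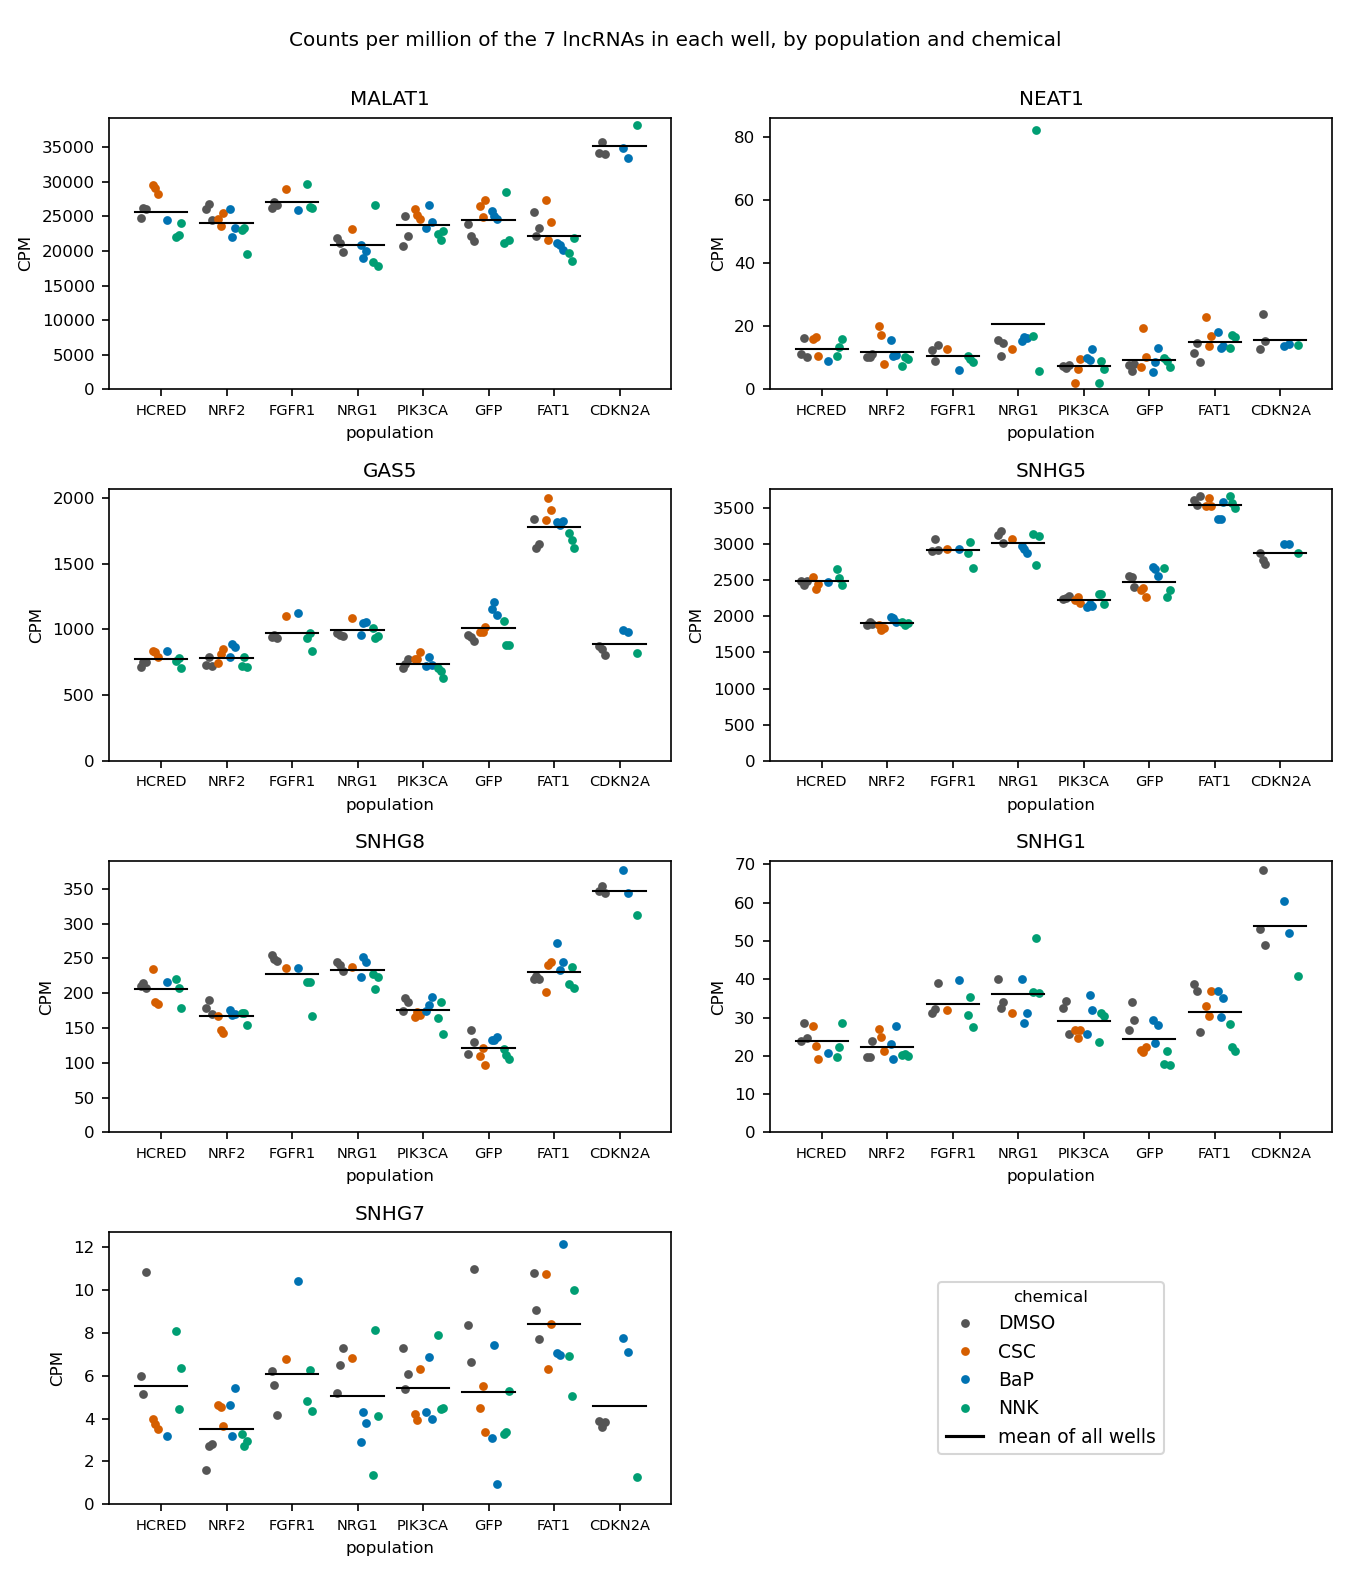
Level of each of the 7 lncRNAs in CPM (y axis, linear from 0) in the 82 wells, by population (x axis) and chemical (colour), with a line at the mean of each population's wells. MALAT1 and SNHG8 were highest in CDKN2A cells and GAS5 and SNHG5 in FAT1 cells, and 1 NRG1 well under NNK held 82.04 CPM of NEAT1.

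The order of the populations differed between members. MALAT1 was highest in CDKN2A cells, at 33401 to 38303 CPM in their 6 wells of 3 chemicals, and none of the 76 other wells exceeded 29737. Below CDKN2A, the populations overlapped from FGFR1 (mean 27138, SD 1433, n = 8) down to NRG1 (mean 20895, SD 2602, n = 10). SNHG8 had the same highest population, at 312 to 376 CPM in CDKN2A cells against at most 272 in the 76 other wells, and its lowest mean was that of GFP cells (121, SD 14.9, n = 12).

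GAS5 and SNHG5 were instead highest in FAT1 cells. GAS5 stood at 1618 to 1999 CPM in the 12 FAT1 wells and at most 1208 in the 70 others, with GFP next at a mean of 1008 (SD 107, n = 12). The other populations overlapped with their neighbours down to PIK3CA (738, SD 53.9, n = 12). SNHG5 stood at 3342 to 3664 CPM in FAT1 cells against at most 3172 elsewhere. Its lowest wells were those of NRF2 cells, at 1807 to 1983 CPM, below every one of the 70 other wells (at least 2131).

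SNHG1 was highest in CDKN2A cells (54.0 CPM, SD 9.49, n = 6), and its wells overlapped there with those of NRG1. The overlap came from 1 well, the NRG1 well that stood apart, at 50.9 CPM. The next highest NRG1 well held 40.1 CPM and the lowest CDKN2A well 40.9. NEAT1 and SNHG7 overlapped between all neighbouring populations. Under DMSO alone, the ratio of the highest to the lowest population mean ran from 1.66 for MALAT1 to 3.88 for SNHG7. The median coefficient of variation within the 25 groups of 3 wells was 2.65% for SNHG5, 4.26% for GAS5, 4.81% for MALAT1, 6.12% for SNHG8, 12.4% for SNHG1, 21.5% for NEAT1 and 25.6% for SNHG7.

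A test over the 8 populations under DMSO (edgeR quasi-likelihood F test, Benjamini-Hochberg adjusted) called 40.3% of the 11595 genes tested, and 7 of the 7 members. The adjusted p ranged from 7.54e-67 for GAS5 to 0.0144 for NEAT1. NEAT1 lost its call with DESeq2 (0.0936) and without replicate 1 or replicate 2 (0.062 and 0.222), and SNHG7 without replicate 1 (0.0516). In these bulk wells, fewer cells with a transcript and less of it in each cell cannot be told apart.

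The first question was how far the control populations differ from each other, since every other comparison of populations uses one of them and those with the same control share its 3 wells. GFP cells held less MALAT1 and SNHG8 and more GAS5 than HCRED cells under DMSO. The GFP wells held 112.5, 147.0 and 129.8 CPM of SNHG8 and the HCRED wells 209.6, 214.7 and 206.8. The groups did not overlap, and the log2 fold change was -0.65 (SE 0.10, adjusted p = 1.08e-06, limma). GAS5 stood at 959, 939.5 and 909 CPM in the GFP wells, above 714.5, 754 and 755 in the HCRED wells, a difference that limma put at 0.38 on the log2 scale (SE 0.05, adjusted p = 3.69e-08). MALAT1 was at 23985, 22152 and 21496 CPM against 24802, 26181 and 26121, again without overlap, and its log2 fold change was -0.15 (SE 0.02, adjusted p = 8.08e-09, limma). Thus 3 of 7 members passed between controls with no targeted gene, where 10.8% of 11134 genes did. The median log2 fold change was 0.07 for the members and -0.02 for all genes. SNHG5 (0.07), SNHG1 (0.26), SNHG7 (0.35) and NEAT1 (-0.71) did not pass, at adjusted p-values of 0.138 to 0.644 (limma). The GFP wells held 5.82 to 8.06 CPM of NEAT1, however, all below the HCRED wells (10.1 to 16.2). Over all chemicals NEAT1 passed, at -0.47 (0.0457), and without GFP replicate 3 SNHG5 passed, at 0.11 (0.0229).

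The SE that limma gives for MALAT1 is smaller than the spread of the wells themselves. For MALAT1 between GFP and HCRED it was 0.02 on the log2 scale, whereas the 6 wells' own log2 CPM, on the same scaling factors (TMM, trimmed mean of M values), gave an SE of 0.06. The same held for NRF2, NRG1, PIK3CA and FAT1, with limma SEs of 0.01 to 0.02 against 0.04 to 0.09 from the wells. For CDKN2A the limma SE was 0.05 and that of the wells 0.08. The limma p-values of MALAT1 therefore do not measure the spread between wells.

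Knockout of CDKN2A, the locus of the cell cycle inhibitor p16, went with calls for most members. Against GFP cells under DMSO, MALAT1, NEAT1, SNHG1 and SNHG8 rose and GAS5 and SNHG7 fell. These are 6 of 7 members by limma, 5 by edgeR and 3 by DESeq2, where 17.9% of the 11575 genes tested passed. The members' median log2 fold change was 0.52 and that of all genes 0.03. MALAT1 stood at 34242, 35825 and 34102 CPM in the CDKN2A wells. The GFP wells, at 21496 to 23985, all lay lower, and the log2 fold change was 0.52 (SE 0.05, adjusted p = 2.64e-14, limma).

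SNHG8, which carries SNORA24, showed the largest of the called rises in CDKN2A cells, from 112.5 to 147.0 CPM in the GFP wells to 346, 354 and 344 CPM, a 2.68-fold ratio of means. Its log2 fold change was 1.32 (SE 0.13, adjusted p = 5.08e-15, limma). The HCRED wells, at 207 to 215 CPM, lay between these groups. SNHG1, which hosts SNORD22 and SNORD25 to SNORD31, stood at 53.0, 68.4 and 49.0 CPM against 26.9, 34.1 and 29.3, without overlap. Its log2 fold change was 0.79 (SE 0.19, adjusted p = 0.0011, limma).

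The other calls in CDKN2A cells were less firm. NEAT1 stood at 12.8, 23.8 and 15.3 CPM against 7.55, 5.82 and 8.06 in GFP cells, a difference that limma put at 1.06 on the log2 scale (SE 0.33, adjusted p = 0.0149). The groups did not overlap, but the call was lost with DESeq2 (0.0744), in a single fit over all groups (0.061) and without GFP replicate 2 (0.0792). The HCRED wells, at 10.1 to 16.2 CPM of NEAT1, overlapped with the CDKN2A wells. SNHG7 stood at 3.91, 3.6 and 3.81 CPM against 8.39, 6.65 and 11 (log2 fold change -1.24, SE 0.42, adjusted p = 0.0261, limma) and lost its call in 8 of 14 alternatives. GAS5, at 873, 849 and 802 CPM against 909 to 959 in GFP cells, differed by -0.26 on the log2 scale (SE 0.10, adjusted p = 0.0468, limma) and lost its call in 7 of 15. The HCRED wells, at 714.5 to 755 CPM of GAS5, all lay below the CDKN2A wells, so the direction of this difference depends on the control. For SNHG5 the log2 fold change was 0.05 (adjusted p = 0.726, limma), while with scaling to total counts it was called at 0.17 (0.000305), a scaling that moved the median of all genes by 0.10. It was also called without CDKN2A replicate 2 (0.15, 0.000547).

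In FAT1 cells, with a knockout of the gene of a large cell-surface cadherin, the host genes GAS5, SNHG5 and SNHG8 rose against GFP cells under DMSO. MALAT1 passed with a smaller difference. Together these are 4 of 7 members, all of them higher, where 14.1% of 11142 genes passed. Over the members the median log2 fold change was 0.58, and over all genes -0.01. GAS5 was at 1837, 1621 and 1648 CPM against 909 to 959 in the GFP wells, and limma gave 0.92 on the log2 scale (SE 0.05, adjusted p = 3.49e-30). It kept its call in all 15 alternatives, at 0.86 to 0.97.

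SNHG5, the host of SNORD50A and SNORD50B, stood at 3609, 3539 and 3664 CPM in the FAT1 wells and at 2553, 2542 and 2404 in the GFP wells, and its limma log2 fold change was 0.58 (SE 0.03, adjusted p = 7.67e-28). SNHG8 was at 220, 225 and 219.9 CPM against 112.5 to 147.0, and its limma log2 fold change was 0.83 (SE 0.10, adjusted p = 4.58e-11). Neither overlapped with its control. The FAT1 wells were, however, close to the HCRED wells in SNHG8 (207 to 215), whereas their GAS5 and SNHG5 lay above the wells of both controls.

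MALAT1 in FAT1 cells, at 25703, 22212 and 23293 CPM, overlapped with GFP, and its log2 fold change of 0.14 (SE 0.02, adjusted p = 1.30e-09, limma) turned to -0.05 (0.155) in the fit over all chemicals. It was not called by DESeq2 (0.0889) or in a single fit over all groups (0.0784). NEAT1 was at 11.4, 14.7 and 8.49 CPM against 5.82 to 8.06, and its limma log2 fold change, 0.72 (SE 0.34, adjusted p = 0.157), passed when all chemicals were fitted together (0.79, 5.24e-05). The HCRED wells under DMSO, at 10.1 to 16.2 CPM of NEAT1, overlapped with these FAT1 wells. SNHG1 (0.24) and SNHG7 (0.14) did not pass (adjusted p = 0.471 and 0.846, limma), but over all chemicals both did, at 0.42 (0.000477) and 0.74 (0.00501).

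NRG1 cells, which overexpress a ligand of the ERBB receptors, had less MALAT1 and more GAS5, SNHG5 and SNHG8 than HCRED cells under DMSO. These are 4 of 7 members, where 3.08% of 11328 genes passed. The median log2 fold change was 0.26 for the members and -0.03 for all genes. The NRG1 wells held 21955, 21153 and 19830 CPM of MALAT1, all below the 24802 to 26181 of HCRED (log2 fold change -0.23, SE 0.01, adjusted p = 6.32e-28, limma). GAS5 stood at 975, 959 and 949 CPM and rose by 0.45 on the log2 scale (SE 0.05, adjusted p = 2.38e-12, limma). The GFP wells under DMSO, at 909 to 959 CPM of GAS5 and 21496 to 23985 of MALAT1, overlapped with the NRG1 wells in both. In SNHG5 and SNHG8 the NRG1 wells lay above the wells of both controls.

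SNHG5 was at 3129, 3172 and 3013 CPM in the NRG1 wells, above 2482, 2427 and 2484 in the HCRED wells, and its limma log2 fold change was 0.41 (SE 0.03, adjusted p = 1.78e-22). It missed the threshold over all chemicals (0.28, 0.0703). SNHG8, at 245, 241 and 232 CPM against 207 to 215, differed by 0.26 on the log2 scale (SE 0.08, adjusted p = 0.0478, limma) and lost its call in 11 of 15 alternatives, with adjusted p-values up to 0.607. SNHG1 (0.52), NEAT1 (0.18) and SNHG7 (-0.07) did not pass, at adjusted p-values of 0.129 to 0.952 (limma). Over all chemicals SNHG1 passed, at 0.59 (0.00349). Its NRG1 wells under DMSO, at 32.4 to 40.1 CPM, lay above the HCRED wells (24.0 to 28.7) and overlapped with the GFP wells (26.9 to 34.1).

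In NRF2 cells, which overexpress the master regulator of the antioxidant response, 2 of 7 members passed against HCRED, where 4.91% of 11217 genes did. SNHG5 fell by 0.28 on the log2 scale (SE 0.03, adjusted p = 2.15e-10, limma), with 1883, 1923 and 1898 CPM in the NRF2 wells, all below the HCRED wells. A single fit over all groups gave the same size and an adjusted p of 0.061. For MALAT1 the mean levels were 25789 (SD 1231, n = 3) and 25701 CPM (SD 779, n = 3), with overlapping wells. Its call (log2 fold change 0.09, SE 0.01, adjusted p = 9.02e-12, limma) was lost with edgeR (0.144) and turned to -0.01 (0.866) with scaling to total counts, which moved the median of all genes by -0.10, and to -0.04 (0.376) over all chemicals. SNHG7, at 1.57, 2.72 and 2.82 CPM against 5.15 to 10.8, differed by -1.34 on the log2 scale (SE 0.50, adjusted p = 0.131, limma). The members' median log2 fold change was -0.14 and that of all genes -0.01. GAS5 (0.10), NEAT1 (-0.13), SNHG8 (-0.14) and SNHG1 (-0.20) had adjusted p-values of 0.337 to 0.896 (limma). The NRF2 wells of SNHG8, at 169.6 to 189.8 CPM, lay below the HCRED wells (206.8 to 214.7) and above the GFP wells (112.5 to 147.0). Over all chemicals SNHG8 passed, at -0.25 (0.000172). The NRF2 wells of SNHG1 also lay below the HCRED wells.

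In PIK3CA cells, which overexpress the catalytic subunit of a lipid kinase of growth factor signalling, 1 of 7 members passed, where 5.4% of 11231 genes did. MALAT1 stood at 20766, 25091 and 22138 CPM, overlapping with HCRED, and its log2 fold change of -0.12 (SE 0.02, adjusted p = 6.87e-05, limma) was not called by edgeR (0.109) or DESeq2 (0.495). NEAT1 was at 7.29, 6.71 and 7.6 CPM, below all 3 HCRED wells (10.1 to 16.2), but its log2 fold change of -0.70 had an adjusted p of 0.245 (limma). These levels lay within the range of the GFP wells under DMSO, 5.82 to 8.06 CPM. Over all chemicals NEAT1 passed, at -0.80 (0.00395), as did SNHG1 (0.32, 0.0338), SNHG5 (-0.11, 2.23e-05) and SNHG8 (-0.20, 0.00437), and with total counts SNHG5 passed at -0.13 (0.00076). Over the members the median log2 fold change was -0.09, and over all genes -0.02. Under DMSO SNHG8 (-0.13), SNHG7 (-0.09), SNHG5 (-0.06), GAS5 (0.06) and SNHG1 (0.31) had adjusted p-values of 0.368 to 0.942 (limma).

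In FGFR1 cells, which overexpress a growth factor receptor, limma called 0 of 7 members, where 0.914% of 11379 genes passed. At an unadjusted p under 0.05 there were 3 members, and edgeR called 0 and DESeq2 1. The median log2 fold change was 0.24 for the members and 0.01 for all genes. GAS5 stood at 943, 960.3 and 935 CPM, above every HCRED well, and limma gave 0.34 on the log2 scale (SE 0.10, adjusted p = 0.0509). The GFP wells under DMSO, at 909 to 959 CPM, overlapped with these FGFR1 wells. Without FGFR1 replicate 3, GAS5 (5.05e-12), SNHG5 (4.01e-25), SNHG8 (0.0272) and MALAT1 (5.11e-75) were called, all higher. The MALAT1 level of that well, 26704 CPM, lay between those of the other 2. With that well kept, total counts called MALAT1 (0.05, 0.000614), GAS5 (0.35, 3.82e-06) and SNHG5 (0.27, 2.37e-09), DESeq2 called GAS5 (0.0458), and the fit over all chemicals called MALAT1 (0.11, 4.58e-05), GAS5 (0.36, 9.57e-10), SNHG5 (0.23, 6.12e-08) and SNHG1 (0.48, 0.00915). SNHG1 stood at 31.2, 32.1 and 38.9 CPM in the FGFR1 wells, above 24.0, 28.7 and 24.8 in the HCRED wells, with an adjusted p of 0.635 under DMSO (0.37, limma). Under DMSO the limma log2 fold changes of SNHG5 (0.25), SNHG8 (0.24) and MALAT1 (0.04) had adjusted p-values of 0.111, 0.561 and 0.887. NEAT1 (-0.09) and SNHG7 (-0.38) had overlapping wells and adjusted p-values of 0.974 and 0.861 (limma).

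**Figure D2:**
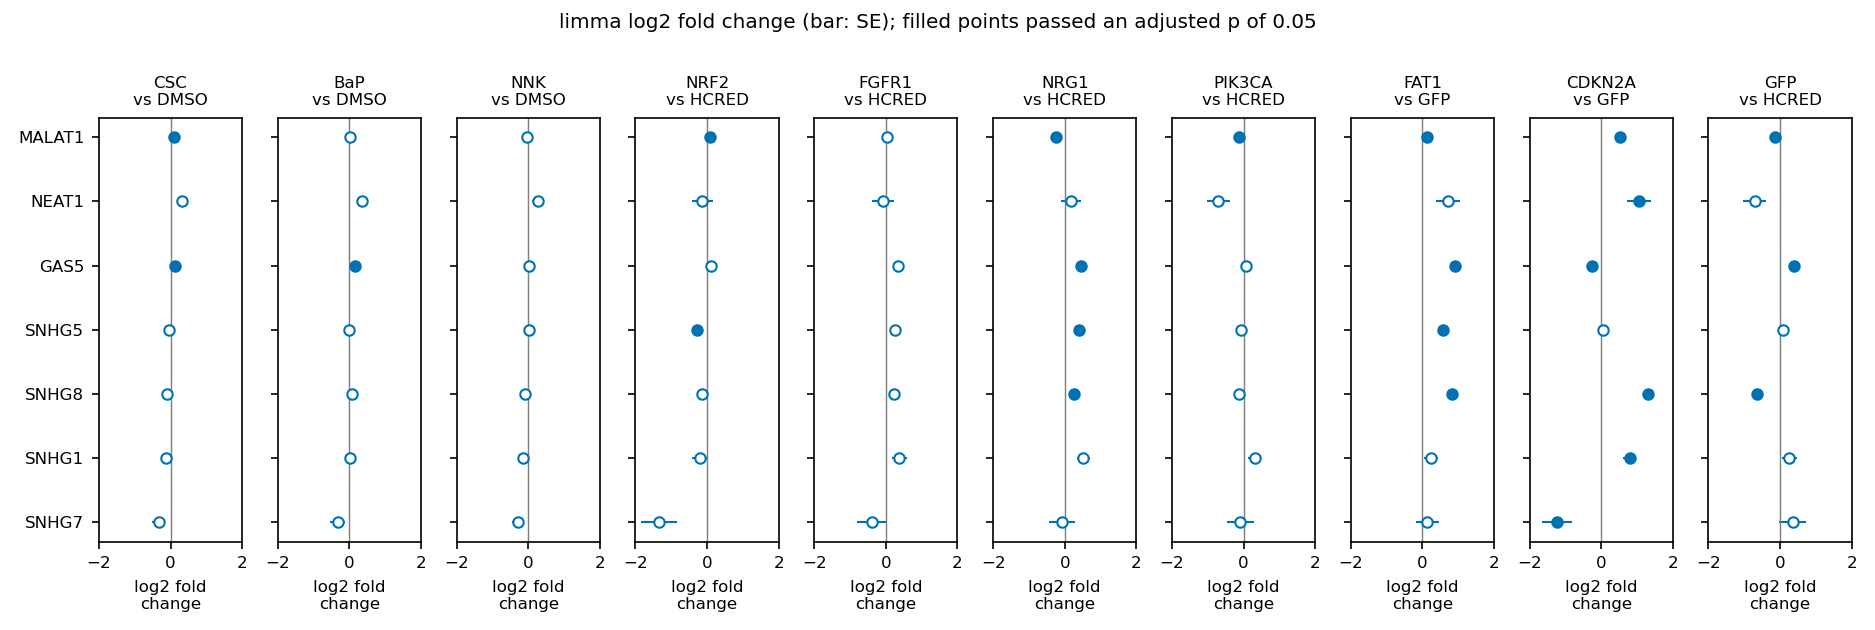
Log2 fold change of each member (x axis) in the 10 comparisons, from limma, with bars for the SE and filled points past an adjusted p of 0.05. GAS5, SNHG5 and SNHG8 lay to the right in FAT1 and NRG1 cells, and SNHG8 moved from -0.65 between the controls to 1.32 in CDKN2A cells.

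The second question was how the members responded to the chemicals. Each chemical was compared with DMSO across the populations with 3 wells under both, with population as a covariate, and the same DMSO wells served in more than 1 of these comparisons. Differences were small. Under CSC, MALAT1 and GAS5 rose, 2 of 7 members, where 5.81% of 11371 genes passed. The members' median log2 fold change was -0.03 and that of all genes -0.00. GAS5 had a higher mean under CSC in 5 of 5 populations, with log2 ratios of 0.09 to 0.17, and in 3 of them all CSC wells lay above all DMSO wells. These were HCRED (832, 827 and 789 CPM under CSC), GFP (983, 983 and 1019) and PIK3CA (776, 775.5 and 829.5). Its log2 fold change was 0.13 (SE 0.03, adjusted p = 0.000545, limma). Without replicate 2 it was 0.09 (0.108).

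MALAT1 rose by 0.10 on the log2 scale under CSC (SE 0.02, adjusted p = 0.000991, limma). The HCRED wells went from 24802, 26181 and 26121 CPM under DMSO to 29549, 29131 and 28321 under CSC, and the GFP wells from 23985, 22152 and 21496 to 26491, 24963 and 27360, both without overlap. In the other 3 populations the groups overlapped, and in NRF2 cells the mean was lower under CSC, with 24608, 23587 and 25480 CPM. Leaving out HCRED the difference was 0.07 (0.0726). NEAT1 was at a mean of 13.1 CPM under CSC (SD 5.91, n = 15) and 9.78 under DMSO (SD 2.91, n = 15), and limma gave 0.33 on the log2 scale (SE 0.15, adjusted p = 0.244). SNHG7 (-0.33), SNHG1 (-0.13), SNHG8 (-0.11) and SNHG5 (-0.03) did not pass, at adjusted p-values of 0.194 to 0.48 (limma).

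Under BaP, GAS5 alone passed, 1 of 7 members, where 9.16% of 11306 genes did. Its mean was higher in 5 of 5 populations, with log2 ratios of 0.01 to 0.31, and all BaP wells lay above the DMSO wells in 2 of them. In GFP cells they stood at 1159, 1208 and 1111 CPM and in NRF2 cells at 792, 887 and 868. The log2 fold change was 0.17 (SE 0.03, adjusted p = 1.27e-06, limma) and kept its call in all 18 alternatives, at 0.10 to 0.22. NEAT1 also had a higher mean in 5 of 5 populations, and limma gave 0.34 on the log2 scale (SE 0.13, adjusted p = 0.0825), and passed among genes with a mean count above 10 (0.0491). Over the members the median log2 fold change was 0.02, and over all genes 0.01. MALAT1 (0.02), SNHG7 (-0.33), SNHG5 (0.00), SNHG1 (0.02) and SNHG8 (0.07) had adjusted p-values of 0.305 to 0.948 (limma).

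Under NNK, limma, edgeR and DESeq2 each called 0 of 7 members, and 0 had an unadjusted p under 0.05, where 7.22% of 11349 genes passed. The median log2 fold change was -0.03 for the members and -0.01 for all genes. MALAT1 CPM was nevertheless lower in every NNK well than in every DMSO well in 3 of 7 populations. These were HCRED (22041, 22268 and 24042), NRF2 (23091, 23339 and 19617) and FAT1 (19654, 18577 and 21885). In the other 4 the wells overlapped, and the limma log2 fold change was -0.03 (SE 0.03, adjusted p = 0.63). The NRG1 well that stood apart, replicate 2 under NNK, held 82.04 CPM of NEAT1 and 26709 of MALAT1, whereas the other 2 wells of its group held 17.0 and 5.78 of NEAT1 and 18468 and 17764 of MALAT1. Without that well SNHG5 was called, at a log2 fold change of 0.08 (0.00242). SNHG8 had a lower mean under NNK in 7 of 7 populations, with a log2 fold change of -0.10 (adjusted p = 0.319, limma), and was called with total counts (-0.14, 0.00855). The other members had limma log2 fold changes from -0.28 (SNHG7) through -0.14 (SNHG1), 0.02 (GAS5) and 0.03 (SNHG5) to 0.26 (NEAT1), with adjusted p-values of 0.332 to 0.857.

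The response of MALAT1 differed between populations (edgeR quasi-likelihood F test of the interaction) for CSC (adjusted p = 0.0262) and BaP (adjusted p = 0.000123). It was 1 of 7 members in each, where 0.141% and 0.177% of the genes tested passed. The BaP wells of GFP cells, at 25867, 25075 and 24631 CPM, lay above their DMSO wells. Those of FAT1 cells, at 21234, 20850 and 20158 CPM, lay below theirs, and the log2 ratios of means ran from -0.19 to 0.16 over 5 populations. The calls were fragile: for CSC the adjusted p was 0.151 to 0.464 when any replicate number was left out, and for BaP it was 0.0603 without replicate 2. For NNK 0 of 7 members passed, also at an unadjusted p under 0.05 and by DESeq2, where 0.0881% of genes did.

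**Figure D3:**
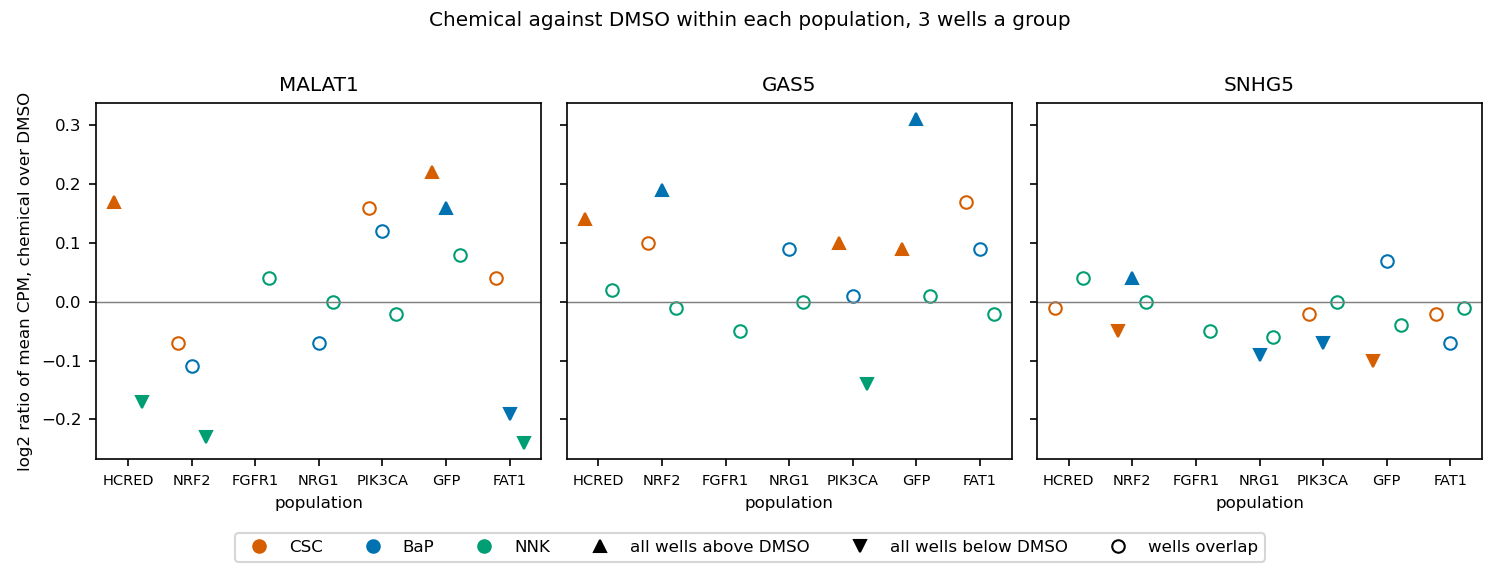
Log2 ratio of mean CPM, chemical over DMSO (y axis), of MALAT1, GAS5 and SNHG5 in each population with 3 wells under both (x axis), by chemical (colour). Triangles mark groups without overlap of wells: GAS5 ratios were above 0 under CSC and BaP in all 5 populations, while MALAT1 ratios under BaP ran from -0.19 to 0.16.

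Other genes of the same pathways were read from lists. Of 17 other snoRNA hosts without a protein product, 11 or 12 were tested. In FAT1 cells 5 of 11 passed (45.5%, all genes 14.1%), 4 higher and 1 lower. The higher ones included ZFAS1, which hosts SNORD12 family snoRNAs (log2 fold change 0.75), SNHG6 (0.87) and SNHG16 (0.32), and DANCR was lower (-0.44). Their median log2 fold change was 0.38, against -0.01 for all genes. In CDKN2A cells 3 of 12 passed (25%, all genes 17.9%), and ZFAS1 was lower there, with a mean of 564 CPM against 853 in GFP cells (log2 fold change -0.70, SE 0.10, adjusted p = 2.16e-08, limma), while DANCR (0.59) and SNHG15 (0.76) were higher. ZFAS1 was also called higher in NRF2 (0.36), FGFR1 (0.54), PIK3CA (0.47) and NRG1 cells (0.16). Between the controls limma called 0 of 12 (all genes 10.8%), with a median of -0.04. Under CSC 1 of 12 passed (8.33%, all genes 5.81%), and under BaP and NNK 2 of 12 each (16.7%, all genes 9.16% and 7.22%). SNHG3 was higher under BaP (0.36) and NNK (0.37), SNHG15 under BaP (0.25), SNHG16 under CSC (0.15), and SNHG12 was lower under NNK (-0.95).

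Of the protein-coding hosts, 12 of 19 passed in CDKN2A cells, 6 in each direction, or 63.2% against 17.9% of all genes. The translation genes TPT1 (-0.75), EEF1B2 (-0.62) and GNB2L1, the ribosomal scaffold RACK1 (-0.35), were lower, as was ATP5B (-0.68), a subunit of ATP synthase. In FAT1 cells 6 of 19 passed (31.6%, all genes 14.1%), with GNB2L1 higher (0.44) and NCL, the nucleolar protein nucleolin, lower (-0.43). Between the controls 9 of 19 passed (47.4%, all genes 10.8%), 3 higher and 6 lower, among them the chaperone HSPA8 (-0.38). NCL was lower under BaP (-0.26) and NNK (-0.34). In NRF2 cells 6 of 19 passed (31.6%, all genes 4.91%) and all were higher, with GNB2L1 at 0.41 and HSPA8 at 0.32.

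Of 17 tested snoRNP core and assembly proteins, 0 to 4 passed in the 10 comparisons. The 4 in FAT1 cells were 23.5% (all genes 14.1%), the 3 in NRG1 cells 17.6% (all genes 3.08%) and the 2 in NRF2 cells 11.8% (all genes 4.91%). NOP10, of the H/ACA particle, was lower in FAT1 cells (-0.50), and DKC1, its pseudouridine synthase dyskerin, was higher in CDKN2A (0.63) and FAT1 cells (0.35). Of 17 nonsense-mediated decay factors, 0 to 5 passed. The 5 under NNK were 29.4%, where 7.22% of all genes passed, with 1 higher (RBM8A, 0.25) and 4 lower (among them UPF2, -0.30, and SMG1, -0.56). In CDKN2A cells 1 of 17 passed (5.88%, all genes 17.9%) and in FAT1 cells 2 of 17 (11.8%, all genes 14.1%). UPF2, a core decay factor, was lower in CDKN2A (-0.95) and FAT1 cells (-0.72). SMG1, the kinase of that pathway, was higher in FAT1 cells (1.02).

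Among 25 paraspeckle proteins, 0 to 4 passed, and the 4 in FAT1, CDKN2A and NNK were 16% each, where 14.1%, 17.9% and 7.22% of all genes passed. SFPQ, a core protein of paraspeckles, was lower under each chemical, with shared DMSO wells, by log2 fold changes of -0.26 for CSC, -0.27 for BaP and -0.36 for NNK. Its partner NONO was lower in FAT1 cells (-0.59) and higher in NRG1 cells (0.24), and it was higher in GFP than in HCRED cells (0.35). The cold-inducible RBM3 was lower in FAT1 (-1.33) and CDKN2A cells (-1.18). Of 20 nuclear speckle and splicing proteins, 4 passed under CSC (1 higher), 7 under BaP (1 higher) and 8 under NNK (2 higher), or 20%, 35% and 40%, where 5.81%, 9.16% and 7.22% of all genes passed. The splicing factor SRSF5 was higher under all 3 (0.54, 0.58 and 0.72), and SRSF6 was lower under all 3 (-0.29, -0.42 and -0.42). Of 15 to 17 other lncRNAs tested, 0 to 4 passed. The 4 of 16 under NNK were 25% (all genes 7.22%) and the 2 of 15 under BaP 13.3% (all genes 9.16%). In NRG1 cells, PIK3CA cells and between the controls 2 of 16 passed each, where 3.08%, 5.4% and 10.8% of all genes did. CDKN2A (3 of 17, 17.6%) and FAT1 cells (2 of 15, 13.3%) lay below all genes (17.9% and 14.1%). Under CSC and in NRF2 cells 1 of 16 passed each (6.25%, all genes 5.81% and 4.91%), and in FGFR1 cells 0 of 16 (all genes 0.914%). MIR205HG, the host gene of an epithelial microRNA, was lower under CSC (-0.30), BaP (-0.54) and NNK (-0.38) and in PIK3CA (-0.72) and NRG1 cells (-0.35). It was higher in NRF2 (0.25), FAT1 (0.56) and CDKN2A cells (0.45), and lower in GFP than in HCRED cells (-0.27). TUG1 was higher in CDKN2A cells (1.23).

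Subunits of RNase P, together with RNase Z the enzymes that cut the 3′ ends of MALAT1 and the long NEAT1, were also examined. In CDKN2A cells 3 of 11 passed (27.3%, all genes 17.9%), 1 higher and 2 lower. In FAT1 cells 2 of 11 passed (18.2%, all genes 14.1%), 1 in each direction. POP1 was higher in CDKN2A cells, at a mean of 46.4 CPM against 15.8 in GFP cells (log2 fold change 1.44, SE 0.23, adjusted p = 5.54e-07, limma), and in FAT1 cells (1.02), and lower in GFP than in HCRED cells (-0.79). RPP40 was lower in FAT1 (-0.52) and CDKN2A cells (-0.54), and RPP38 in CDKN2A cells (-0.71). Over the chemicals, 1 of 12 passed under BaP (RPP25, 8.33%, all genes 9.16%). Under CSC and NNK 0 of 12 passed (limma), where 5.81% and 7.22% of all genes did.

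**Figure D4:**
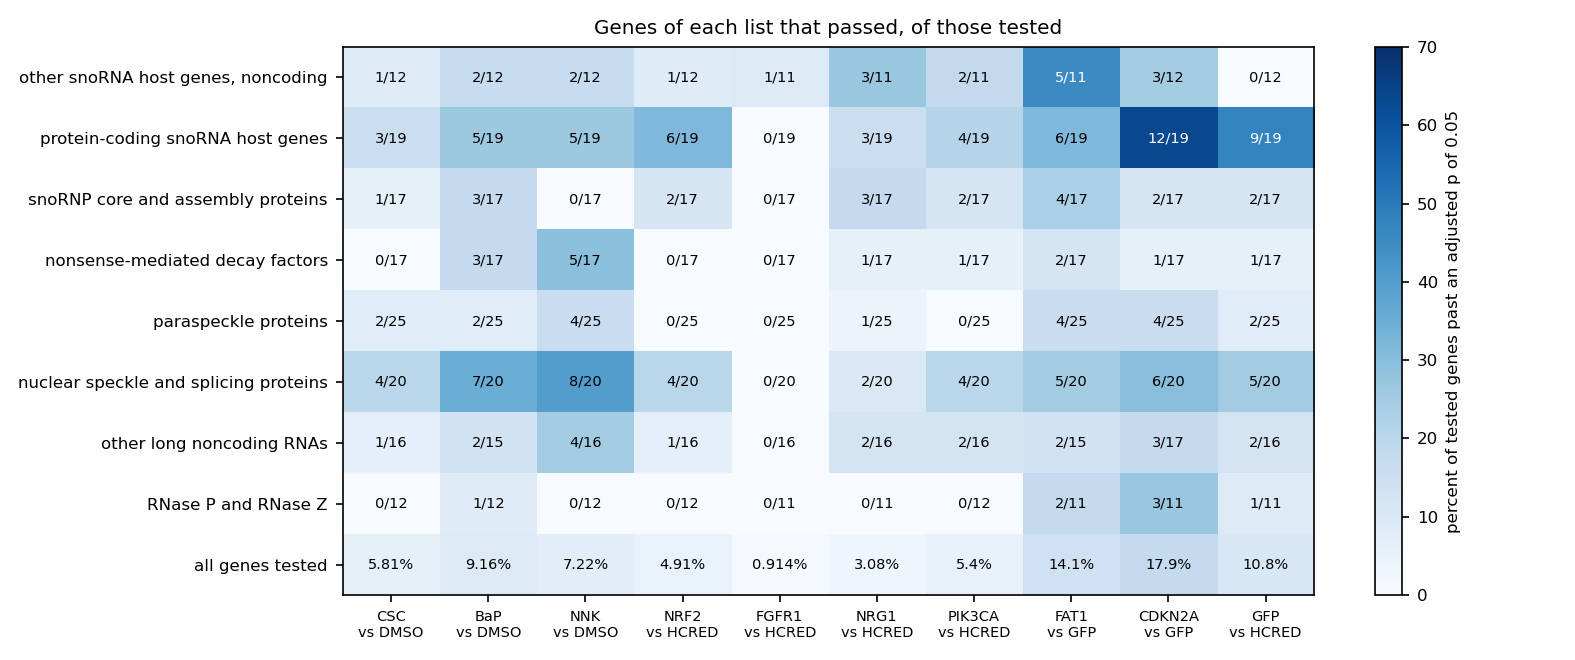
Genes of each list past an adjusted p of 0.05 (limma) of those tested, by comparison (x axis), coloured by their percentage, with the percentage of all genes in the bottom row. Non-coding hosts stood at 5 of 11 in FAT1 cells and protein-coding hosts at 12 of 19 in CDKN2A cells.

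As a description of which genes followed the members, Pearson correlations were taken over the 31 group means of log2 CPM, among 3358 genes with a mean of at least 20 CPM. The groups share populations and chemicals, so that these points are not independent. The genes nearest to MALAT1 were SEC62 (0.835), FXR1 (0.815) and LIMS1 (0.806). GAS5 was nearest to RPL10 (0.939), RABGGTB (0.906) and RPL19 (0.881), and RABGGTB itself hosts snoRNAs. SNHG5 was nearest to CDC26 (0.853), RNFT1 (0.851) and RPS27 (0.825), and SNHG8 to RAB34 (0.893), C2orf74 (0.829) and RPS7 (0.819). SNHG1 was nearest to HSPA5 (0.803), DTD1 (0.799) and RAB34 (0.791). NEAT1 and SNHG7 were below 20 CPM. Ribosomal protein genes have near-identical copies, so their counts are uncertain. Between members, the highest correlations were 0.79 for GAS5 with SNHG5 and 0.76 for SNHG1 with SNHG8. MALAT1 and NEAT1, neighbours on chromosome 11, had 0.08.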

How the data were processed

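The authors deposited 1 table per well with unnormalized UMI counts for every gene. Per the study's methods, reads had been placed on RefSeq transcripts with BWA and each UMI of a well counted once per gene. The submitters' processing notes name BWA 0.7.10 and hg19. Whether counting used the strand is not given in the sources used here, so overlapping and antisense genes may be merged.

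Groups and replicate numbers came from the sample titles. In 6 groups there were 13 wells whose number had 2 digits, which the labels do not explain, and these entered alternatives only. CPM used the total counts of a well. The main test, after the study's methods, was voom in limma 3.58.1 on TMM-scaled counts (edgeR 4.0.16, R 4.3.3), on both sides, in the groups compared. Genes entered if their mean count exceeded 1, and calls were made at a Benjamini-Hochberg adjusted p under 0.05. Tests over several terms used edgeR's quasi-likelihood F. DESeq2 1.42.0 was an alternative, with other scalings, filters, sample sets, a replicate block and left-out wells.

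The members and lists were chosen with earlier results of these data known. All members are named in each comparison, and from each list up to 4 genes a comparison with the smallest adjusted p, of which the text gives a selection. Same-numbered wells were checked for pairing over 24 comparisons: their 72 correlations of deviations ran from -0.11 to 0.102 (median 0.013), so the numbers were not taken as pairs. The fits were tested on simulated data. Sequences and positions came from hg19 and a GENCODE annotation of it, and the placement of snoRNAs in hosts from RefSeq gene positions, used for containment only. The transcript end of 1 member is not reported here.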

Additional observations from a re-analysis of the deposited data

Results flagged for a closer look

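The effect of a chemical on MALAT1 differed between populations by a test of the interaction of chemical and population (edgeR quasi-likelihood F test), with an adjusted p of 0.0262 for CSC and 0.000123 for BaP. The log2 ratios of mean CPM ran from -0.07 to 0.22 over 5 populations for CSC and from -0.19 to 0.16 for BaP. All wells under CSC lay above DMSO in HCRED and GFP cells. Under BaP they lay above in GFP cells and below in FAT1 cells. The cause was not tested, and plate position cannot be told apart from population and chemical.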

How the results depend on the processing

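For the tests of members that the main fit called, there were 407 alternative values. Of these, 353 kept their direction and call, 51 lost the call and 3 changed sign: MALAT1 in NRF2 cells with total counts (-0.01) and over all chemicals (-0.04), and MALAT1 in FAT1 cells over all chemicals (-0.05). Tests that the main fit did not call are outside this tally, and some of them were called in alternatives. Examples are SNHG5 (0.07, adjusted p = 0.0167, limma) and SNHG8 (0.10, 0.0208) under BaP with the 2-digit wells as separate samples. The levels of the 7 members moved by less than 1 SD with TMM scaling and with all 95 wells. The causes were not tested. Counts of called genes over all genes stayed within 1.5 times in 136 of 187 alternatives. Leaving out 1 replicate number gave 408 to 470 genes for CSC, 523 to 765 for BaP, 258 to 1424 for NNK, and for the differences in response between populations 2 to 14 for CSC, 6 to 16 for BaP and 2 to 30 for NNK. Leaving out 1 well gave 50 to 329 for FGFR1 and 204 to 331 for NRG1. Taking in the 2-digit wells as separate samples gave 1134 for CSC, 1926 for BaP and 1392 for NNK, and summing them 1035, 1872 and 1325. For NNK, no filter gave 2145, leaving out FAT1, HCRED, NRF2 or NRG1 gave 491, 545, 513 and 2034, and leaving out the NRG1 well that stood apart gave 2245. With DESeq2 the difference in response to NNK had 2, the knockouts CDKN2A and FAT1 had 1247 and 856, the controls 659, and the overexpressed NRG1, FGFR1, NRF2 and PIK3CA had 217, 51, 351 and 341. Total counts gave 206 for FGFR1, and the fit of every group at once 331 for PIK3CA, 204 for NRF2 and 73 for NRG1. With every chemical in the fit, CDKN2A had 3496, FAT1 3695, the controls 2878, PIK3CA 1612, NRF2 1317, FGFR1 643 and NRG1 126.

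Total counts in place of TMM moved the share of called genes that were higher from 69.0% to 42.2% for NRF2, 67.6% to 34.9% for NRG1, 62.1% to 44.1% for PIK3CA, 55% to 35.5% for BaP, 42.5% to 32% for NNK, 48.4% to 61.6% for CDKN2A and 55% to 43.1% for GFP. A replicate block changed 1 of 46 results: SNHG8 in NRG1 cells kept its log2 fold change of 0.26 and missed the threshold (0.052). For NEAT1 and SNHG7, with few counts, the SEs under the chemicals were 0.13 to 0.20 on the log2 scale, so that differences of the size called for GAS5 were not detectable at this depth.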

Other observations

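The 13 wells with replicate numbers of 2 digits are given as values only. CDKN2A cells under CSC were present only among them, with 3 wells at 32808 to 38088 CPM of MALAT1, 282 to 310 of SNHG8, 921 to 961 of GAS5, 2659 to 2757 of SNHG5 and 33.9 to 52.9 of SNHG1. The 2 such wells of CDKN2A cells under NNK held 29291 and 32682 CPM of MALAT1, below the 38303 of the single 1-digit well of that group. The lower of the 2 was also below the highest 1-digit well of the other populations (29737 CPM). In the 2 of FGFR1 cells under BaP, NEAT1 stood at 4.26 and 19.4 CPM. Of the 2 of NRG1 cells under CSC, both lay above the 1-digit well (237 CPM) in SNHG8, at 242 and 246 CPM. In HCRED cells under BaP, GAS5 was at 818 and 887 CPM, on either side of the 839 of the 1-digit well.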
